A study of Mus musculus with 30 samples.

Results

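The vacuolar ATPase (V-ATPase) is a rotary proton pump built from a cytosolic V1 part and a membrane V0 part, and its 9 V1 subunit genes Atp6v1a, Atp6v1b2, Atp6v1c1, Atp6v1d, Atp6v1e1, Atp6v1f, Atp6v1g1, Atp6v1g2 and Atp6v1h were followed here in brains with different numbers of intact Tmem106b copies. The 9 genes were taken by name from a table of 34871 genes, all 9 were found, and all 9 were among the 23695 genes kept for testing. The samples were cerebral hemispheres of 30 mice aged 8 months, 10 wild type (Tmem106b +/+, WT), 10 heterozygous (+/-, HET) and 10 homozygous (-/-, KO), each mouse giving 1 RNA sequencing library. Each genotype held 5 females and 5 males, 6 mice of cohort 1 and 4 of cohort 2, and the RNA integrity number (RIN) averaged 9.40 ± 0.28 (SD, n = 10) in WT, 9.23 ± 0.22 in HET and 9.35 ± 0.49 in KO. The sources used here name neither the strain, nor the targeted stretch of Tmem106b, nor what the cohort number stands for.

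V1 holds the catalytic hexamer of alternating A and B subunits, which hydrolyses ATP, a central rotor of D and F, and peripheral stalks of E and G that hold the hexamer still against C, H and the membrane part. The pump acidifies lysosomes and endosomes and, in neurons, powers the filling of synaptic vesicles with transmitter. V1 can leave V0 and bind again, which turns the pump off and on. Tmem106b, the gene deleted in these mice, encodes a membrane protein of late endosomes and lysosomes.

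Values are the deposited log2 RPKM (a read density per exon base and per sequenced read, put through conditional quantile normalization), so a difference of values is a log2 fold change. Read depth is unknown, because the table carries no counts, and precision was judged from the spread between mice. Tmem106b itself followed the labels, at 9.17 ± 0.07 (SD, n = 10) in WT, 8.58 ± 0.03 in HET and 7.53 ± 0.08 in KO, and no library of 1 genotype reached the range of another. RNA assigned to the gene in KO was 32.0% of the WT level. Of the members, Atp6v1f lies 16.4 Mb and Atp6v1e1 107.7 Mb from Tmem106b on chromosome 6, and the other 7 are on other chromosomes. Hemispheres mix neurons and glia, so fewer cells of a type and less RNA per cell cannot be told apart.

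Promoter windows from RefSeq (GRCm38.p6, 250 bases before to 50 after an annotated start) were found for 5 of the 9 members, 6 windows in all because Atp6v1g2 has 2. Atp6v1b2, Atp6v1c1, Atp6v1g1 and Atp6v1h had no entry. The stretches of 3 windows that lie outside every annotated exon are shown 5′ to 3′. Atp6v1a is shown because it alone holds the E-box letters CACGTG that MiT/TFE factors recognise in many lysosomal genes. Atp6v1d and Atp6v1e1 are shown because their levels, with genotype, sex, cohort and RIN removed, passed adjustment by Pearson r (0.54) but not by rank. All 3 are on the minus strand, at chr16:44139306-44139461, chr12:78861639-78861818 and chr6:120822794-120822948, and capitals mark CACGTG and the GC box GGGCGG, the site of SP1-like factors at many housekeeping genes.
Atp6v1a: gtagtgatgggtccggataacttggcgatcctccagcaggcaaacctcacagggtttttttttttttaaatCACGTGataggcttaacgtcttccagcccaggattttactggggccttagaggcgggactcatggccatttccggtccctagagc
Atp6v1d: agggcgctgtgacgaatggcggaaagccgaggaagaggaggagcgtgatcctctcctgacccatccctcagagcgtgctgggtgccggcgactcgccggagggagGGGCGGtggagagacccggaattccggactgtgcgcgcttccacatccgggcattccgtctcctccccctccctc
Atp6v1e1: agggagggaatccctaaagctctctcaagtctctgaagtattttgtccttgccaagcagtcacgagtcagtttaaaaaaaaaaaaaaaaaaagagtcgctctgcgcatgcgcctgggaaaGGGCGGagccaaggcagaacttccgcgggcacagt

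Searched on both strands, CACGTG was in 7.15% of all 32851 RefSeq windows and in 1 of the 6 member windows, at -131 to -126 from the start of Atp6v1a. The 8-letter form TCACGTGA, which contains it, is at the same place and was in 0.974% of windows. That Atp6v1a start was not matched to a transcript start in the GENCODE M21 annotation, and the stretch lies between annotated first exons of the gene. GGGCGG was in 35.7% of all windows and in 4 of the 6 member windows, those of Atp6v1d, Atp6v1e1, Atp6v1f (2 copies) and 1 of the 2 of Atp6v1g2. Counted from the RefSeq starts, it lies at -75 to -70 in Atp6v1d and at -130 to -125 in Atp6v1e1. The Atp6v1e1 RefSeq start (120822698) lies inside the GENCODE M21 gene, which begins at 120822793 on the minus strand. These matches are descriptions of letters in the windows.

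V1 subunit RNA was abundant in every brain. On the per-length scale the mean level over the 30 libraries ran from 11.72 ± 0.04 (SD) for Atp6v1e1 to 7.94 ± 0.10 for Atp6v1h, against a median of 2.85 for the library medians. Atp6v1e1 stood above 99.6% of the genes kept and Atp6v1h above 85.3%. Between them came Atp6v1g2 at 10.93 ± 0.04, Atp6v1d at 10.67 ± 0.05, Atp6v1c1 at 10.66 ± 0.06, Atp6v1b2 at 10.63 ± 0.03, Atp6v1a at 10.31 ± 0.05, Atp6v1g1 at 9.58 ± 0.07 and Atp6v1f at 9.47 ± 0.09. Atp6v1d, Atp6v1c1 and Atp6v1b2 did not differ beyond their spread, and the ranges of Atp6v1g1 and Atp6v1f overlapped. The table's exon lengths equal the GENCODE M21 exon bases for 6 members and are shorter for Atp6v1c1 (2097 against 5601), Atp6v1d (1403 against 4602) and Atp6v1e1 (1203 against 4110), so the order of these 3 depends on the annotation.

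The brain forms were the ones measured. Of 4 V1 paralogs outside the members, Atp6v1b1, the B form known from kidney, had a mean of 0.75, and Atp6v1c2 had 3.55. Atp6v1e2, known from testis, at -0.17 and Atp6v1g3, known from kidney, at -1.67 were too low to be kept. Neither kept paralog was called in KO against WT (1% of all genes), HET against WT (0.00422%) or KO against HET (0.118%).

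Atp6v1b2 varied little between brains even for its level. The residual SD, the spread left after genotype, sex, cohort and RIN, was 0.025 for Atp6v1b2, lower than in all but 0.0844% of genes kept and, among 316 genes within 0.5 of its level, lower than in all but 0.633%. For Atp6v1e1 it was 0.033 and for Atp6v1g2 0.034, in the lowest 0.739% and 0.950% of all genes but at 23.5% and 9.02% among genes of like level. Atp6v1h and Atp6v1f were the most variable, at 0.087 and 0.077, above 78.6% and 73.7% of genes of like level.

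**Figure D1:**
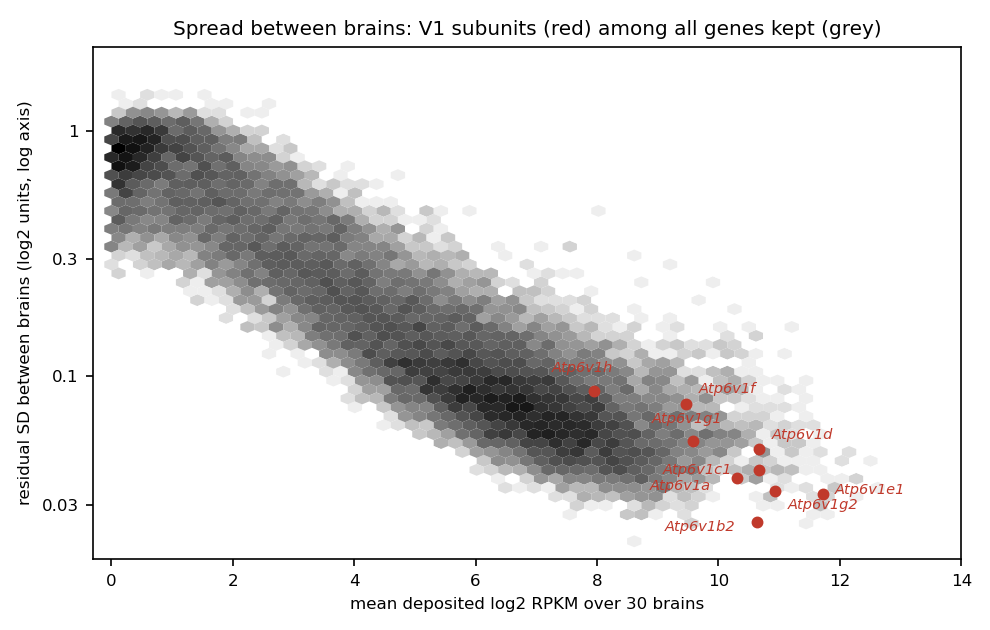
Residual SD between brains (log2 units, log axis) against the mean deposited log2 RPKM over 30 brains, with the 23695 genes kept in grey (darker where more genes fall) and the 9 V1 subunits in red. Atp6v1b2 (0.025) lies at the lower edge for its level, and Atp6v1f and Atp6v1h lie above the middle of theirs.

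The first comparison asked whether V1 subunit RNA differs between brains with both, 1 or no intact copy of Tmem106b. No member passed the test in any pair of genotypes. In KO against WT 0 of 9 members were called (limma, Benjamini-Hochberg adjusted p under 0.05), where 237 of 23695 genes, 1%, were. In HET against WT 0 of 9 were called against 0.00422% of genes (1 gene), and in KO against HET 0 of 9 against 0.118% (28 genes). At an unadjusted p under 0.05, 3 members stood out in KO against WT (12% of genes), 2 in HET against WT (6.32%) and 0 in KO against HET (8.66%).

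Neither subunit of the catalytic hexamer passed the test. Atp6v1a (chromosome 16, 44085402 to 44139705, mm10), the subunit that carries the catalytic ATP sites, ran from 10.23 (lowest) through 10.29 (median) to 10.36 (highest) in WT, from 10.26 through 10.34 to 10.37 in HET and from 10.24 through 10.30 to 10.37 in KO. The 3 ranges nearly coincided. The fitted difference of Atp6v1a in KO against WT was 0.00 ± 0.018 (log2 ± SE, limma adjusted p = 0.968), while HET against WT gave 0.02 ± 0.019 (adjusted p = 0.881).

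Atp6v1b2 (chromosome 8, 69088646 to 69113711), the brain form of the B subunit that alternates with A, ran from 10.56 through 10.61 to 10.66 in WT, from 10.62 through 10.65 to 10.69 in HET and from 10.58 through 10.63 to 10.65 in KO. The groups overlapped, but all 10 HET brains lay above the WT mean and 4 above every WT brain, while 9 of 10 KO brains lay above the WT mean and none above every WT brain. The difference in HET against WT was 0.04 ± 0.014, 3.16% (95% interval 0.02 to 0.07 on the log2 scale), with the lowest unadjusted p among the members in that comparison, 0.00373 (limma adjusted p = 0.686). In KO against WT it was 0.02 ± 0.014 (adjusted p = 0.563). Gm15717, with a mean of 6.30, lies inside Atp6v1b2 over 774 bases. Reads of overlapping genes cannot be told apart here, because the sources used here do not say whether counting used strand.

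Neither rotor subunit passed the test. Atp6v1d (chromosome 12, 78842989 to 78861638), the central shaft, ran from 10.60 through 10.65 to 10.71 in WT, from 10.58 through 10.67 to 10.72 in HET and from 10.57 through 10.67 to 10.78 in KO, so the KO range enclosed the WT range. Its difference was 0.03 ± 0.023 in KO against WT (limma adjusted p = 0.705), and HET differed from WT by 0.02 ± 0.023 (adjusted p = 0.915). Atp6v1f (chromosome 6, 29467718 to 29470512), the small rotor subunit that sits beside D, ran from 9.35 through 9.44 to 9.64 in WT, from 9.30 through 9.46 to 9.58 in HET and from 9.39 through 9.48 to 9.68 in KO. The groups overlapped over nearly their whole width, with differences of 0.03 ± 0.033 (KO) and 0.00 ± 0.034 (HET) from WT.

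Of the stalk subunits in KO against WT, the fitted values of E1 and G1 were above 0 and that of G2 was below 0, none called. Atp6v1e1 (chromosome 6, 120795245 to 120822685), the E form of most tissues, ran from 11.65 through 11.70 to 11.74 in WT, from 11.68 through 11.72 to 11.77 in HET and from 11.67 through 11.73 to 11.82 in KO. Ranges overlapped, with 4 KO and 2 HET brains above every WT brain. The Atp6v1e1 difference in KO against WT was 0.04 ± 0.017, 2.62% (95% interval 0.207 to 5.10%), at an unadjusted p of 0.0342 (limma adjusted p = 0.359).

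Atp6v1g1 (chromosome 4, 63544772 to 63550750), the G form found widely across tissues, ran from 9.46 through 9.56 to 9.70 in WT, from 9.46 through 9.57 to 9.65 in HET and from 9.56 through 9.58 to 9.75 in KO, with 7 of 10 KO brains above the WT mean. Its difference in KO against WT was 0.04 ± 0.024 (limma adjusted p = 0.539), while HET against WT gave 0.01 ± 0.025 (adjusted p = 0.969).

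Atp6v1g2 (chromosome 17, 35233660 to 35238767), the neuron-enriched G form, was the only member with a fitted value below 0 in KO against WT. It ran from 10.88 through 10.97 to 11.00 in WT, from 10.87 through 10.92 to 10.96 in HET and from 10.87 through 10.91 to 10.96 in KO. The groups overlapped, but 9 of 10 KO and 8 of 10 HET brains lay below the WT mean. The Atp6v1g2 difference in KO against WT was -0.04 ± 0.017, or -2.96% (95% interval -5.26 to -0.612%), at an unadjusted p of 0.0156, the lowest of the 9 (limma adjusted p = 0.266), while HET against WT gave -0.03 ± 0.017 (adjusted p = 0.793). Atp6v1g2 shares 144 exon bases with Nfkbil1 on the opposite strand, whose mean was 6.32.

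Among the regulatory subunits the larger value was that of H. Atp6v1c1 (chromosome 15, 38661904 to 38692443), the C subunit that links the stalks and is released when V1 leaves V0, ran from 10.59 through 10.65 to 10.72 in WT, from 10.61 through 10.67 to 10.74 in HET and from 10.54 through 10.66 to 10.78 in KO. KO brains were the most spread, and the KO range enclosed both others. The Atp6v1c1 difference was 0.03 ± 0.019 in KO against WT (limma adjusted p = 0.552), and HET differed from WT by 0.04 ± 0.020 (adjusted p = 0.785).

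Atp6v1h (chromosome 1, 5070018 to 5162529), the H subunit that is required for activity and silences free V1, ran from 7.76 through 7.85 to 8.13 in WT, from 7.91 through 7.96 to 8.07 in HET and from 7.80 through 7.96 to 8.17 in KO. The 10 HET and 9 of 10 KO brains lay above the WT mean, inside or close to the WT range. The Atp6v1h difference was 0.09 ± 0.037 in KO against WT, 6.49% (95% interval 0.971 to 12.3%, limma unadjusted p = 0.0222, adjusted p = 0.310), and 0.10 ± 0.038 in HET against WT, 6.83% (1.18 to 12.8%, unadjusted p = 0.0190, adjusted p = 0.768). By cohort, the Atp6v1h value in HET against WT was 0.16 ± 0.037 in cohort 1 (limma adjusted p = 0.405) and turned to -0.01 ± 0.066 in cohort 2 (adjusted p = 1.000). The gene shares 127 exon bases with Rgs20 on the opposite strand, whose mean was 6.37.

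**Figure D2:**
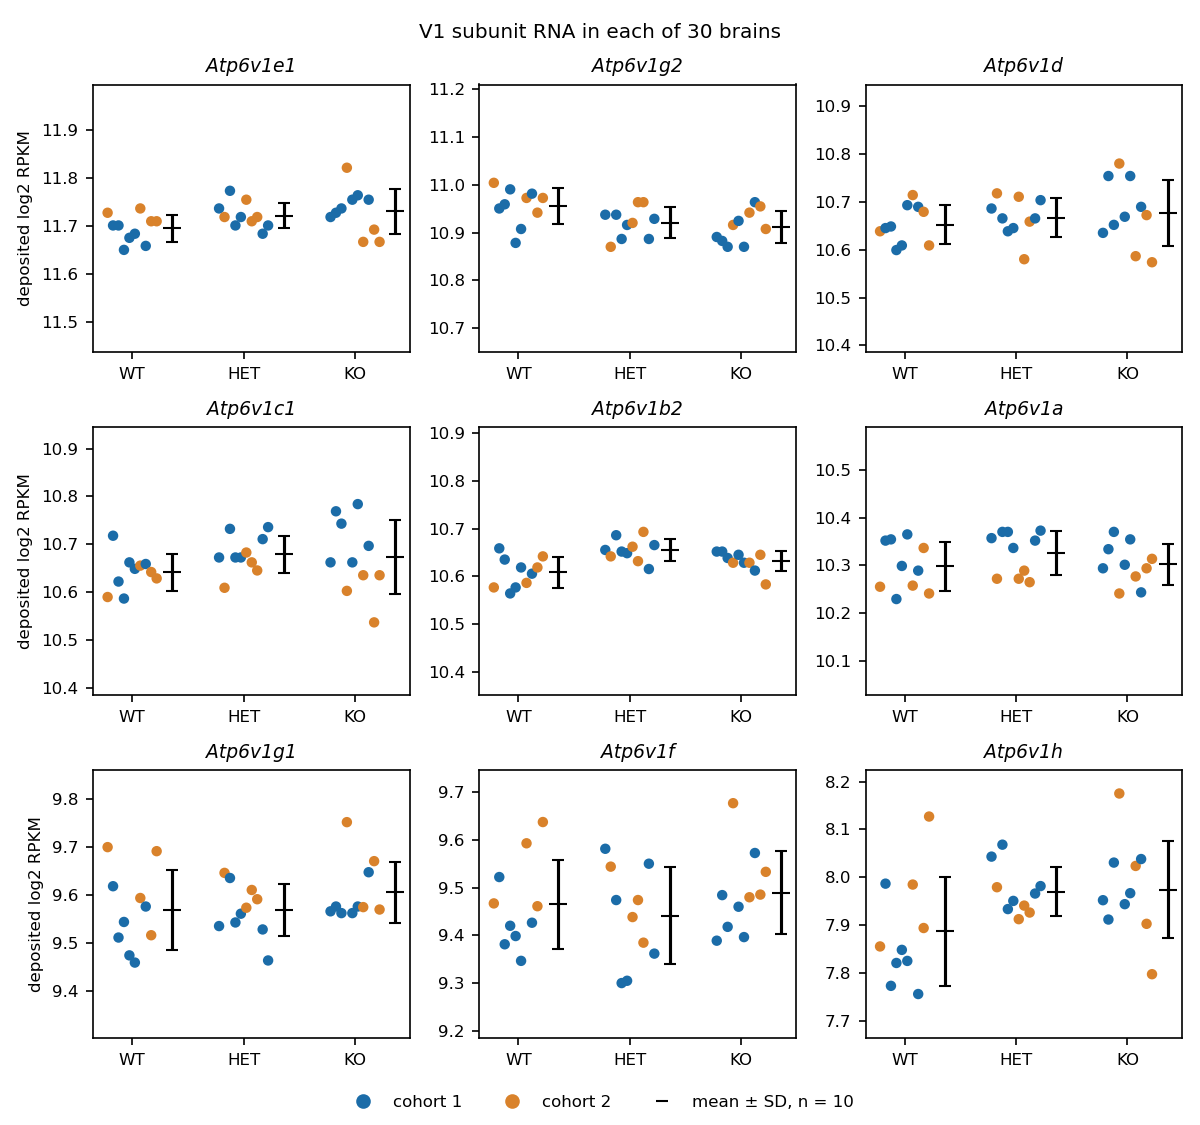
Deposited log2 RPKM of each V1 subunit in each of 30 brains, by genotype, with points coloured by cohort and the mean ± SD (n = 10) beside each group, on vertical axes of equal span. The WT, HET and KO points overlap for all 9 subunits, and the values spread most for Atp6v1f and Atp6v1h.

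The intervals set how large a difference these data leave room for. With the spread seen here, a KO against WT difference would have been called from 3.86% for Atp6v1b2 up to 10.8% for Atp6v1h. No 95% interval in KO against WT reached beyond -5.26% for Atp6v1g2 on the lower side or 12.3% for Atp6v1h on the upper. The median fitted difference of the 9 members was 0.03 in KO against WT, where the median of all genes kept was 0.01, and 8 of 9 members were above 0 against 53.3% of genes. It was 0.02 in HET against WT, with 7 of 9 above 0 (51.5% of genes), and 0.00 in KO against HET, with 4 of 9 above 0 (51.8%). KO and HET were set against the same WT brains, so their values are not independent of each other. A slope over the number of deleted copies called 0 of 9 members, where 1.02% of genes were called.

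**Figure D3:**
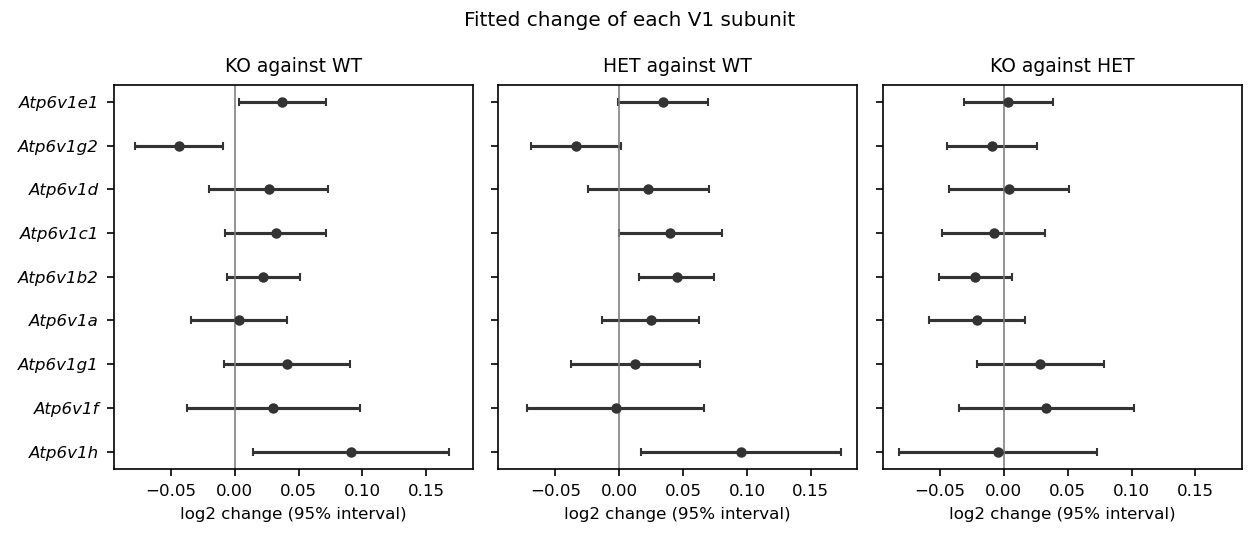
Fitted log2 difference of each V1 subunit with its 95% interval for KO against WT, HET against WT and KO against HET, from the limma fit over 30 brains. In KO against WT only the Atp6v1g2 point lies below 0, and the intervals of Atp6v1e1, Atp6v1g2 and Atp6v1h exclude 0 before adjustment for the 23695 genes tested.

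The KO against WT values were also fitted within each cohort, and no member's value was shown to differ between cohorts. Within cohort 1 (6 against 6) the fitted values were 0.14 ± 0.037 for Atp6v1h (limma adjusted p = 0.0644), 0.07 ± 0.024 for Atp6v1c1 (adjusted p = 0.157) and 0.06 ± 0.020 for Atp6v1e1 (adjusted p = 0.107). Within cohort 2 (4 against 4) they were 0.02 ± 0.063, -0.03 ± 0.032 and 0.00 ± 0.034, all with an adjusted p of 0.999. Atp6v1g2 had -0.04 ± 0.023 in cohort 1 and -0.05 ± 0.032 in cohort 2. A test of the difference between cohorts called 0 of 9 members (0.0338% of genes), with the lowest unadjusted p, 0.0142, for Atp6v1c1 at -0.10 ± 0.036 (limma adjusted p = 0.455).

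By sex, the KO against WT value of Atp6v1g2 was -0.08 ± 0.021 in males (limma adjusted p = 0.150) and -0.01 ± 0.029 in females (adjusted p = 0.953). The sex difference in that effect was -0.07 ± 0.033 at an unadjusted p of 0.0443 (adjusted p = 0.687). It was called for 0 of 9 members and for 0% of all genes, while 1682 genes (7.1%) and 1 member had an unadjusted p under 0.05. Between the sexes themselves 0 of 9 members were called (0.333% of genes).

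The widely expressed G1 and the neuron-enriched G2 were also set against each other within each library. Atp6v1g2 minus Atp6v1g1 ran from 1.28 to 1.45 in WT (mean 1.39 ± 0.06, SD, n = 10), from 1.22 to 1.47 in HET (1.35 ± 0.06) and from 1.16 to 1.37 in KO (1.31 ± 0.06). All 10 KO brains lay below the WT mean, yet only 1 lay below every WT brain. The KO mean was lower than the WT mean by a log2 difference of -0.08 ± 0.027, -5.46% of the G2 to G1 ratio (two-sided permutation test, 100000 resamples, p = 0.00622, adjusted over 3 comparisons 0.0187). HET against WT differed by -0.04 ± 0.028 (permutation p = 0.223, adjusted 0.223) and KO against HET by -0.05 ± 0.027 (permutation p = 0.106, adjusted 0.158). Of these 3 comparisons 1 had an adjusted p under 0.05. Only this pair of genes was tested, with adjustment over 3 comparisons and not over all genes. In KO against WT, Atp6v1g1 had 0.07 ± 0.037 and Atp6v1g2 -0.01 ± 0.029 in females. The values in males were 0.02 ± 0.035 and -0.08 ± 0.021, none called.

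The ratio also moved with cohort and RIN. Its mean was 1.37 ± 0.06 in the 18 mice of cohort 1 and 1.32 ± 0.07 in the 12 of cohort 2. Within cohort 1 KO minus WT was -0.10 (exact permutation p = 0.00433), and within cohort 2 it was -0.06 (exact permutation p = 0.343, where the smallest possible is 0.0286). With sex, cohort and RIN in a linear model, a setting chosen after the data were seen, KO minus WT was -0.08 ± 0.024, beside a term of -0.06 ± 0.020 for cohort 2 and -0.07 ± 0.030 for each RIN unit. In the same brains all 12 oligodendrocyte marker genes had a fitted value below 0 in KO against WT (median -0.26). Of these, 11 were called lower, where 0.722% of all genes were. Their summed level ranged from 13.58 to 13.80 (log2) in WT, 13.52 to 13.69 in HET and 13.38 to 13.60 in KO. Of 12 neuron markers 0 were called (median -0.01, summed level 14.58 to 14.64 in WT, 14.60 to 14.65 in HET and 14.58 to 14.63 in KO), and no marker of either list was at 0. The part of cell composition in the ratio was not tested.

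**Figure D4:**
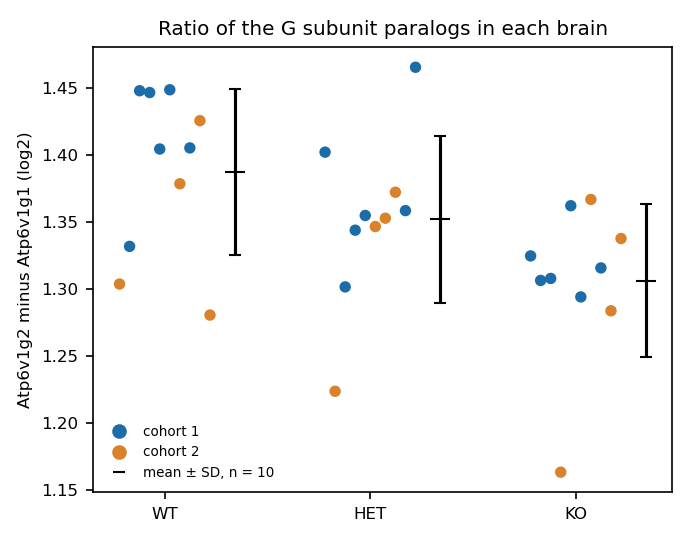
Deposited log2 RPKM of Atp6v1g2 minus that of Atp6v1g1 in each of 30 brains, by genotype and coloured by cohort, with the mean ± SD (n = 10). The KO points lie at or below 1.37 and centre on 1.31, while WT points centre on 1.39, and the lowest KO point at 1.16 stands apart.

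Cohort was the one factor with called members. In cohort 2 against cohort 1, 4 of 9 members were called, where 17.5% of all genes were, 8.09% higher and 9.42% lower. Atp6v1f and Atp6v1g1 were higher in cohort 2, and Atp6v1a and Atp6v1c1 were lower. Each cohort held all 3 genotypes and both sexes in the same proportions.

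Atp6v1f, of the rotor, ran from 9.30 through 9.42 to 9.58 in the 18 mice of cohort 1 and from 9.38 through 9.48 to 9.68 in the 12 of cohort 2, where 11 of 12 lay above the cohort 1 mean. It was higher by 0.10 ± 0.028 (limma adjusted p = 0.0126). Atp6v1g1, of the stalks, ran from 9.46 through 9.56 to 9.65 in cohort 1 and from 9.52 through 9.60 to 9.75 in cohort 2, again with 11 of 12 above the cohort 1 mean. It was higher by 0.08 ± 0.021 (limma adjusted p = 0.00548).

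Atp6v1a, the catalytic subunit, ran from 10.23 through 10.35 to 10.37 in cohort 1 and from 10.24 through 10.27 to 10.34 in cohort 2, where 11 of 12 lay below the cohort 1 mean. The Atp6v1a difference was -0.06 ± 0.016 (limma adjusted p = 0.0119). Atp6v1c1, the regulatory subunit, ran from 10.59 through 10.67 to 10.78 in cohort 1 and from 10.54 through 10.64 to 10.68 in cohort 2, with all 12 below the cohort 1 mean. The Atp6v1c1 difference was -0.06 ± 0.017 (limma adjusted p = 0.0118). Without KO replicate 4 it was -0.05 at a limma adjusted p of 0.0629, so it kept its direction but was no longer called.

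Gene length and RNA quality are given beside these cohort differences. Of the called members, the higher Atp6v1f (1063 bases) and Atp6v1g1 (1135) are the 2 shortest, the lower Atp6v1c1 has 2097 bases and the lower Atp6v1a 6044. The longest member, Atp6v1h (9746 bases), was not called, at 0.04 ± 0.032 in cohort 2 against cohort 1. Over genes with a mean above 7, the median cohort difference was 0.06 in genes of 24 to 1039 bases, 0.02 in those of 1040 to 2599, -0.01 in those of 2600 to 4650 and -0.02 in longer ones. At its table length Atp6v1c1 falls in a class whose median was above 0. Its GENCODE M21 exon bases (5601) would place it among the longer genes, so its class depends on the annotation. RIN was 9.39 ± 0.24 in cohort 1 and 9.23 ± 0.46 in cohort 2. Per RIN unit, 0 of 9 members were called (0.0633% of genes), with the lowest unadjusted p for Atp6v1f at 0.12 ± 0.042 (p = 0.00668, limma adjusted p = 0.287). Of 12 neuron markers 1 was called higher and 5 lower in cohort 2, where 8.09% of all genes were higher and 9.42% lower. The neuron markers had a median of -0.05 and a summed level of 14.58 to 14.65 in cohort 1 and 14.58 to 14.64 in cohort 2. Of 12 oligodendrocyte markers 4 were called higher and 0 lower (median 0.06, summed level 13.38 to 13.70 and 13.47 to 13.80). The part of length, RIN or cell composition in the cohort differences was not tested.

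**Figure D5:**
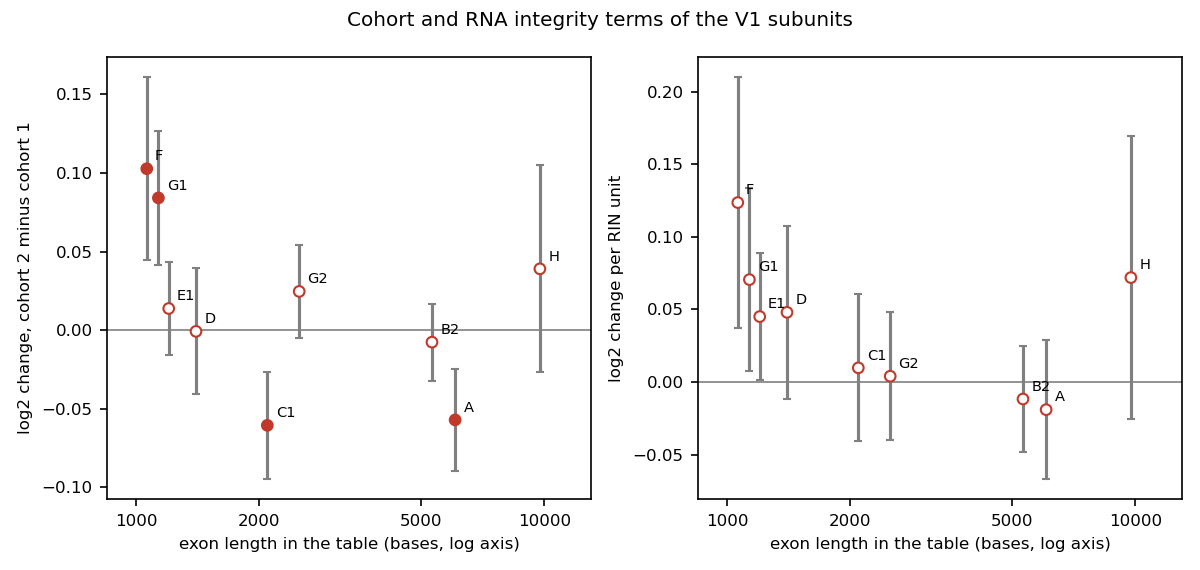
Fitted cohort 2 minus cohort 1 difference (left) and change per RIN unit (right) of each V1 subunit, in log2 units with 95% intervals, against exon length on a log axis; filled points passed adjusted p under 0.05. The short Atp6v1f and Atp6v1g1 lie above 0 on the left and Atp6v1c1 and Atp6v1a below, while the longest, Atp6v1h, lies above 0 unfilled, and no point is filled on the right.

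Subunits of 1 pump did not vary as a block between brains. After genotype, sex, cohort and RIN were removed, 26 of the 36 pairs of members had a correlation above 0 over 30 libraries, with a median Pearson r of 0.116. Only Atp6v1f with Atp6v1h passed by both measures, at r = 0.61 (permutation p = 0.00033, adjusted over the 36 pairs 0.0119) and Spearman rho = 0.65 (p = 0.00014, adjusted 0.00504), the 2 most variable members. Among all other genes kept, Atp6v1h ranked 369 of 23694 by r for Atp6v1f, and Atp6v1f ranked 442 for Atp6v1h. It was 0.59 without the 2 farthest libraries, 0.54 within cohort 1 (n = 18) and 0.84 within cohort 2 (n = 12). Atp6v1d with Atp6v1e1, rotor and stalk, had r = 0.54 (permutation p = 0.00192, adjusted 0.0346) and rho = 0.45 (p = 0.0132, adjusted 0.127). It was 0.42 without the 2 farthest libraries, 0.30 in cohort 1 and 0.74 in cohort 2. Libraries share depth and base composition across genes, which can also give such correlations, and this was not tested.

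The genes most like the 9 members in this residual variation were looked for among all genes kept, as a description over 30 libraries with no test. The mean of the members was most like Fabp3, a fatty acid binding protein (r = 0.84), Vdac2, a channel of the outer mitochondrial membrane (0.78), Cyb5a, a cytochrome b5 (0.78), and the ribosomal protein gene Rpl39 (0.77). Atp6v1f was most like Rpl41, another ribosomal protein gene (r = 0.89), and Atp6v1h most like Ndufa12, of respiratory complex I (0.86). Atp6v1g1 had 1110032A03Rik (0.81), Atp6v1a had Hecw1 (0.77), Atp6v1d had Yipf6 (0.77) and Atp6v1c1 had 4930512B01Rik (0.75). For Atp6v1b2 it was Asb3 (0.77), for Atp6v1e1 Gm7776 (0.77) and for Atp6v1g2 Ptx3 (0.77), and the latter 2 partners had means of 0.33 and 0.77, near the lower limit of the genes kept. No member was the closest gene of another, and the nearest was Atp6v1e1, which ranked 181 of 23694 for Atp6v1d.

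No gene of the membrane part passed the genotype tests either. Of 12 V0 and accessory genes 11 were kept (Atp6v0d2 was too low). In KO against WT 0 of 11 were called (1% of all genes), in HET against WT 0 of 11 (0.00422%) and in KO against HET 0 of 11 (0.118%). Their median was 0.012 in KO against WT (0.006 over all genes) and 0.014 in HET against WT (0.002). The lowest p in KO against WT was that of Atp6ap2, the prorenin receptor and an accessory subunit, at 0.06 ± 0.018 (limma adjusted p = 0.0991), from 10.55 ± 0.03 (SD, n = 10) in WT to 10.61 ± 0.05 in KO. Next were Atp6v0d1, the V0 subunit that meets the rotor, at 0.04 ± 0.014 (adjusted p = 0.145), Atp6v0e at 0.09 ± 0.029 (0.171) and Atp6v0a4 at 0.16 ± 0.074 (0.361). In cohort 2 against cohort 1, Atp6v0e2 (0.05) and Atp6v0b (0.05), a subunit of the proton-carrying ring, were higher and Atp6v0a2 (-0.13) and Atp6v0a1 (-0.06), forms of the large a subunit, were lower (limma adjusted p from 0.00068 to 0.0366), which is 2 of 11 in each direction where 8.09% of all genes were higher and 9.42% lower.

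Factors that build or join the pump gave 0 of 10 called in HET against WT (0.00422% of all genes). In KO against WT 0 of 10 were called (1%), with a median of 0.05 (0.01 over all genes) and 9 above 0 (53.3%). Vma21, a chaperone for V0, had 0.06 ± 0.030 (limma adjusted p = 0.440), Ccdc115 0.08 ± 0.042 (0.447), Tmem199 0.05 ± 0.025 (0.449) and Tbc1d24 0.05 ± 0.026 (0.482). In cohort 2 Vma21 was higher (0.10) and 4 of the 10 were lower (8.09% and 9.42% of all genes). Among the lower were Dmxl2 (-0.10) and Wdr7 (-0.04), the partners that form rabconnectin-3, which helps V1 join V0. The other 2 were Ncoa7 (-0.13) and Tbc1d24 (-0.07).

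Genes that sense nutrients at the lysosome, which dock on the pump, were taken with the TFEB family, 15 genes in all. In HET against WT 0 of 15 were called (0.00422% of all genes). In KO against WT 0 of 15 were called (1%), with a median of 0.03 (0.01 over all genes) and 13 above 0 (53.3%). The lowest p values were those of Slc38a9, a lysosomal arginine sensor, at 0.07 ± 0.033 (limma adjusted p = 0.389), Lamtor3, of the Ragulator complex, at 0.06 ± 0.026 (0.400), Tfe3 at 0.05 ± 0.029 (0.481) and Rragb, a Rag GTPase, at 0.04 ± 0.023 (0.580). In cohort 2 against cohort 1, 7 of the 15 were higher and 3 lower, where 8.09% of all genes were higher and 9.42% lower. The higher ones were the 5 Ragulator genes Lamtor1 (0.07), Lamtor2 (0.12), Lamtor3 (0.07), Lamtor4 (0.15) and Lamtor5 (0.11), with Tfeb (0.18) and Tfe3 (0.11), and the lower ones were Rraga (-0.05), Rragb (-0.09) and Mtor (-0.06).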

How the data were processed

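RNA sequencing libraries of cerebral hemispheres from 30 mice were compared. Per the submitters' processing notes, the tools were TopHat2 2.0.12 and Bowtie 1.1.0 and the build was mm10. How reads were counted, with which annotation and whether by strand, is not given in the sources used here. Next, the authors deposited log2 RPKM values after conditional quantile normalization, per the file headers, with no counts, so depth per library is unknown and only the spread between mice gives the precision. At the 5000 highest ranks the deposited values of the 30 libraries differed by an SD of at most 0.000116, so a change shared by most genes cannot be seen.

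Members and lists (V1 paralogs, V0 and accessory subunits, assembly factors, nutrient sensing and TFEB family, markers of neurons, oligodendrocytes, astrocytes, microglia, endothelium and choroid plexus) were chosen with earlier results of these data known. Genes with a mean above 0 were kept (23695 of 34871). limma 3.58.1 (R 4.3.3) fitted genotype, sex, cohort and RIN over all 30 libraries, with two-sided moderated tests (eBayes with an intensity trend), Benjamini-Hochberg adjustment over all genes kept and calls at an adjusted p under 0.05. The limma code was tested on simulated data. All 9 members were named for every comparison; of each list, called genes and up to 4 with the lowest p; of similar genes, the top 5 for the mean of members scaled to equal SD and the top 1 for each member (1 of the 5 is not reported here). Alternatives were other covariates, samples, filters, scalings, a pseudocount of 1, variance models, each cohort and sex alone, and each library left out. Replicate numbers follow accession order and pair nothing.

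Of the marker lists not given with the results, KO against WT called 1 of 8 astrocyte genes (Gfap, higher), 1 of 9 microglia genes (C1qb, higher), 1 of 7 endothelial genes (Tek, lower) and 0 of 8 choroid plexus genes. Over all genes, 0.279% were called higher and 0.722% lower in that comparison. None of these lists had a gene called in HET against WT, where 0.00422% of all genes were.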

Additional observations from a re-analysis of the deposited data

Results flagged for a closer look

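The difference Atp6v1g2 minus Atp6v1g1 was 1.16 in KO replicate 4, far below the other 9 KO brains, whose gap to it was 0.592 of the whole KO range. Of 30 groups checked in this way (each member and this difference in each genotype), it was the only one to stand apart. By chance the rule flags about 1 in 20 such groups, so 1 flag among 30 is not unusual as a count. The groups share libraries and genes, and whether chance gave this gap was not tested. This library, of a male of cohort 2, had a RIN of 10, shared by 1 other library. It was also the highest of all 30 libraries for Atp6v1d (10.78), Atp6v1e1 (11.82), Atp6v1f (9.68), Atp6v1g1 (9.75) and Atp6v1h (8.17), while it ranked 27 for Atp6v1c1 from the highest. Without it, KO minus WT of the difference was -0.07 (exact permutation p = 0.0121).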

How the results depend on the processing

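For KO against WT, HET against WT and KO against HET, 0 of 9 members were called under each of 13 other settings and with each of 30 libraries left out. The lowest adjusted p was 0.0644, for Atp6v1h in KO against WT within cohort 1. Medians of the members ran from 0.006 to 0.045 in KO against WT, 0.002 to 0.049 in HET against WT and -0.005 to 0.020 in KO against HET. The 4 cohort calls stood in 7 other settings of filter, scaling, variance model or library weights. These settings kept the same covariates and all 30 libraries. The deposited values also shared 1 distribution at the highest ranks beforehand, so these settings are a weak check. With a library left out, 3 to 4 of the calls stood.

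Some uncalled values changed sign, and the cause was not tested. Of these, Atp6v1h in HET against WT (0.10) and Atp6v1e1 in KO against WT (0.04) had an unadjusted p under 0.05 over all 30 libraries. In KO against WT these were Atp6v1c1 (-0.025) and Atp6v1e1 (-0.000625) in cohort 2 alone and Atp6v1a (-0.031) in females alone. In HET against WT they were Atp6v1f with only the 2 groups compared (0.0045), in cohort 1 (0.016) and in females (0.078), Atp6v1a (-0.0050) and Atp6v1h (-0.0092) in cohort 2 and Atp6v1g1 in males (-0.012). In KO against HET they were Atp6v1h with genotype alone (0.0040), Atp6v1c1 in cohort 1 (0.020), and in cohort 2 Atp6v1a (0.011), Atp6v1d (-0.028), Atp6v1e1 (-0.026), Atp6v1g2 (0.0045) and Atp6v1h (0.025). They were also Atp6v1d (-0.0043), Atp6v1f (-0.0044) and Atp6v1g2 (0.017) in females and Atp6v1c1 (0.012), Atp6v1e1 (-0.00017) and Atp6v1h (0.042) in males.

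With single libraries left out, sign changes came in Atp6v1a in KO against WT (-0.00696 to 0.0137), Atp6v1f in HET against WT (-0.0237 to 0.0117) and, in KO against HET, Atp6v1c1 (-0.0165 to 0.00319), Atp6v1d (-0.00539 to 0.0162), Atp6v1e1 (-0.00447 to 0.0118) and Atp6v1h (-0.0159 to 0.0162). By p not adjusted over the 3 comparisons, Atp6v1g2 minus Atp6v1g1 in KO against WT was under 0.05 in the other settings (females alone 0.0397, exact permutation) but not in cohort 2 alone (-0.059, exact permutation p = 0.343) or males alone (-0.081, exact permutation p = 0.103), where 4 and 5 mice a group were compared. It ran from -0.0929 to -0.0652 with single libraries left out. No paired analysis was possible because replicate numbers were given in accession order and mark no shared litter or batch. The unknown depth limits what can be said of Atp6v1h, the lowest member.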
